A study of Saccharomyces cerevisiae W303 with 9 samples.

Results

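The 10 genes described here encode the enzymes that make methionine, cysteine and S-adenosylmethionine in budding yeast, with the methionine permease Mup1. They were taken by systematic name from a table of read counts: MET2 (YNL277W), MET6 (YER091C), STR3 (YGL184C), SAM4 (YPL273W), SAM1 (YLR180W), SAM2 (YDR502C), SAH1 (YER043C), CYS4 (YGR155W), CYS3 (YAL012W) and MUP1 (YGR055W). All 10 were found among 7127 features, and all 10 were among the 5970 features with enough counts to be tested. The counts come from poly(A) RNA of 9 cultures of W303, a common laboratory background, in 3 groups of 3. The groups are wild-type cells, cells with a deletion of AIM29 (the deletion strain), and cells with the same deletion that also carry pmTDH3-ZPR1 (the construct strain). The last 2 groups thus share the loss of AIM29, and cells carrying the construct with AIM29 intact were not analysed here. Per the labels, each strain was represented by 3 isolates in mid-log growth on rich glucose medium (YPD), harvested when the optical density (600 nm) read 0.4 to 0.6. The labels do not say whether isolates were separate strain constructions or were grown on separate days, so the p-values measure the spread between these cultures only.

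In budding yeast, Met2 acetylates homoserine, and the product takes up sulfide to give homocysteine, which Met6 methylates to methionine. Sam1 and Sam2 convert methionine to S-adenosylmethionine, the methyl donor of the cell. What remains after methyl transfer, S-adenosylhomocysteine, is hydrolysed by Sah1, and Sam4 uses S-adenosylmethionine itself to methylate homocysteine. Cys4 and Cys3 carry homocysteine through cystathionine to cysteine, and Str3 works the other way, from cystathionine to homocysteine. Many of these genes are known targets of the activator Met4, which reaches DNA through Cbf1 and the zinc finger proteins Met31 and Met32, and amino acid synthesis genes in general respond to the activator Gcn4.

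The DNA in front of the genes was searched for the core sequences of these factors, since the factors are the known regulators of the pathway. The windows were the 500 bases before each start codon, in the S288C reference genome of build R64 from RefSeq, on both strands; W303 can differ from it. They may reach into a neighbouring gene. The Gcn4 core TGACTCA was present at STR3 and MUP1, so in 2 of 10 windows, against 4.01% of 5987 nuclear protein-coding genes. The palindrome CACGTG bound by Cbf1 was present in 6 of 10 windows (MET2, MET6, SAM2, SAH1, CYS4 and CYS3), against 6.23%. The Met31/Met32 core AAACTGTGG was present in 5 of 10 (MET6, SAM1, SAM2, CYS4 and MUP1), against 0.835%. SAM4 had no match to any of the 3 motifs in its window. A match describes letters and was not tested as a site of binding. The stretches that hold the matches at 4 genes, named again below, are shown 5′ to 3′ in the reading direction of the gene, with the motif letters in capitals. The STR3 stretch is chrVII:156243-156442 on the minus strand, MUP1 is chrVII:599117-599266 on the plus strand, SAM1 is chrXII:514912-515011 on the plus strand and SAM2 is chrIV:1454715-1454814 on the minus strand.
STR3: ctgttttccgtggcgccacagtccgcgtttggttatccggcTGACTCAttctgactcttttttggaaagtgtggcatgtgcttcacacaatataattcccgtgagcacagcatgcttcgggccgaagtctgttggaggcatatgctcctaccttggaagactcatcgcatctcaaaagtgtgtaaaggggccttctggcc
MUP1: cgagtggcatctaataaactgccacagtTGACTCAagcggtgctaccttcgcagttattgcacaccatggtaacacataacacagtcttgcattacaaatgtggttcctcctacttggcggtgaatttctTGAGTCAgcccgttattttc
SAM1: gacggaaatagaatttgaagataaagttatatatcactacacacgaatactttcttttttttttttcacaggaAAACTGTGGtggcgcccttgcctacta
SAM2: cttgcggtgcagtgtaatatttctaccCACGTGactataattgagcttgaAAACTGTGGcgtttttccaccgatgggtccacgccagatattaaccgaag
STR3 has its Gcn4 core between 389 and 383 bases before the start codon. MUP1 has 1 copy on each strand, from 272 to 266 and from 170 to 164 bases before it, as well as a Met31/Met32 core farther out at 464 to 456. In SAM2 the Cbf1 palindrome at 323 to 318 stands just before the Met31/Met32 core at 300 to 292, while SAM1 has a Met31/Met32 core alone, at 277 to 269.

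All 10 genes are annotated with a single coding exon and overlap no other annotated gene in build R64. SAM1 and SAM2 encode near copies of the same enzyme, and 82.8% of their aligned coding bases are identical. They share 2 stretches of 59 bases without a mismatch. One of them lies at chrXII:515961-516019 in SAM1 (plus strand) and chrIV:1453701-1453759 in SAM2 (minus strand), and is shown because reads inside it cannot be assigned to either gene.
SAM1 and SAM2: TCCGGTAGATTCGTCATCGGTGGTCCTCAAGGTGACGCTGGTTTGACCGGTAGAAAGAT
Of all 50-base windows in these genes, 98.2% occur once in the genome for each of SAM1 and SAM2. SAM4 has 80.1%, because its end is repeated in YMR321C on chromosome XIII, and the other 7 genes have 100%. YMR321C itself had between 1 and 17 counts per library, where SAM4 had at least 5879.

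Library totals ran from 14380639 to 20140071 counts, lowest in the deletion strain and highest in the construct strain with no overlap between the 3 groups. AIM29 was at 78.4 ± 3.38 CPM (SD, n = 3) in wild-type cells, where CPM are counts relative to the scaled size of each library. It was at 2.76 ± 1.72 CPM in deletion cells and 6.56 ± 1.22 in construct cells. ZPR1 was at 329 ± 7.59, 422 ± 22.6 and 5380 ± 454 CPM, so both genes were as the labels say, apart from a remainder of AIM29 reads. Genes that mark mating type a summed to between 1182 and 1731 CPM per library, and those of mating type alpha to between 6.23 and 9.73, as in cells of mating type a. The mating type sums are relative to library totals without scaling, unlike the other CPM. The a-type genes summed to 1612 to 1731 CPM in the wild type and 1251 to 1310 in the deletion strain, and their part in the results was not tested. The construct libraries varied most, with a biological coefficient of variation of 14.8% against 5.22% in the wild type and 3.76% in the deletion strain, and 10.1% without construct replicate 3. Over the 10 genes, construct replicate 3 lay a median of 0.22 on the log2 scale above the mean of the other 2 construct libraries, and values without it stand beside several results below.

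Levels in the wild type, per kilobase of coding sequence, spanned a wide range. SAH1 was highest at 1123 ± 42.7 CPM per kilobase (SD, n = 3), followed by CYS4 at 787 ± 19.0 and SAM1 at 769 ± 11.5, whose libraries overlapped each other. SAM2 at 528 ± 41.1 and CYS3 at 487 ± 9.19 CPM per kilobase also overlapped. SAM4 was at 381 ± 9.83, and MET6 at 223 ± 26.4 overlapped with MUP1 at 198 ± 7.93. MET2, at 16.6 ± 0.56, and STR3, at 11.3 ± 2.31 CPM per kilobase, were far below the rest and did not overlap each other. STR3 stood above 14.2% and MET2 above 20.6% of 5721 tested genes with a known coding length, where SAH1 stood above 96.7%. The lowest count in any library was 193 for STR3 and 372 for MET2, which gives a counting error of 7.2% and 5.18% on that value, against at most 1.49% for the other 8 genes.

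**Figure D1:**
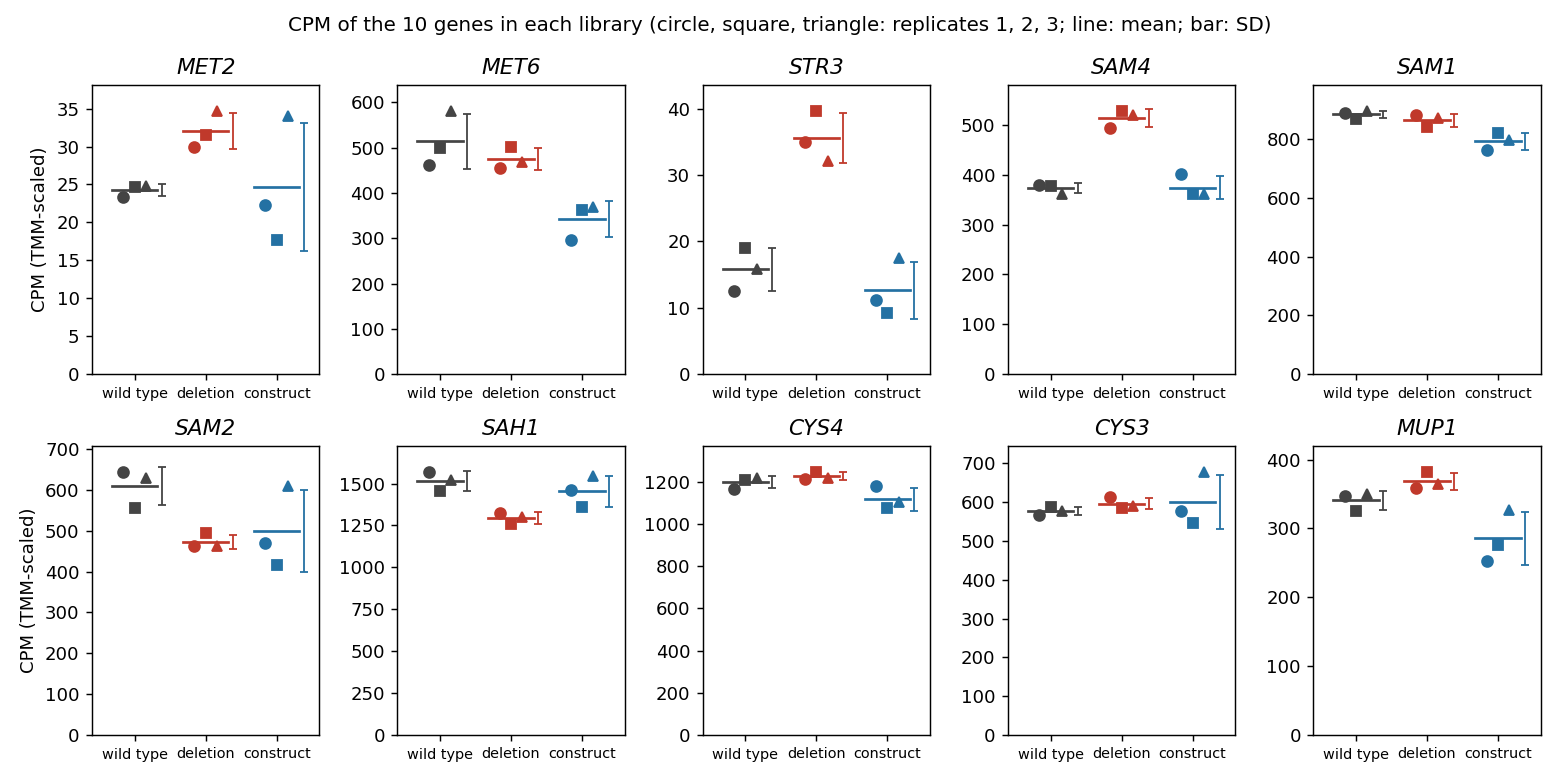
CPM of each of the 10 genes (vertical axis, from 0) in the 3 libraries of the wild type, the deletion strain and the construct strain, with marks for replicates 1, 2 and 3, a line at the mean and a bar for the SD. STR3 and SAM4 are higher in every deletion library than in any other library, and MET6 is lower in every construct library than in any other library.

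How these genes stand when AIM29 is missing was read from the deletion and wild-type libraries. The genes split: STR3 and SAM4 were higher and SAH1 was lower. The cysteine genes CYS4 and CYS3 differed by less than 0.05 on the log2 scale without a call. By the quasi-likelihood test of edgeR, with p-values adjusted over all genes by the Benjamini-Hochberg method, 2 of 10 genes were called higher and 1 lower at an adjusted p under 0.05. In the background, 4.24% of tested genes were called higher and 2.16% lower. The median log2 fold change of the 10 genes was 0.04, against 0.00355 over all genes tested, and the 10 values ran from −0.37 to 1.17.

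STR3, which makes homocysteine from cystathionine, had the largest difference among the 10 genes. It was at 12.5, 19.0 and 15.9 CPM in the wild-type libraries and at 35.0, 39.6 and 32.1 CPM in the deletion libraries. Each deletion library was above each wild-type library, a 2.25-fold difference of the means. The log2 fold change was 1.17 ± 0.21 (SE; edgeR, adjusted p = 0.00866). Its adjusted p was 0.0529 without wild-type replicate 3 and 0.0547 without deletion replicate 2.

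SAM4, the methyltransferase that spends S-adenosylmethionine to make methionine, was at 380, 377 and 362 CPM in the wild type and at 493, 527 and 519 CPM in the deletion strain. The groups did not overlap, and SAM4 was 1.38-fold higher in the deletion strain. The log2 fold change was 0.46 ± 0.06 (SE; edgeR, adjusted p = 0.000805), and the adjusted p stayed between 3.96e-10 and 0.00953 over the alternatives. Adding the counts of YMR321C, a choice made after seeing the data, gave 0.46 ± 0.06 again. With only 1 to 17 counts per library in YMR321C the sum could hardly differ. Any reads dropped for having several positions would not be recovered by it.

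SAH1, which clears S-adenosylhomocysteine, was at 1569, 1454 and 1524 CPM in the wild type and at 1326, 1256 and 1303 CPM in the deletion strain. It was lower in each deletion library than in each wild-type library, and its mean fell by 14.5%. The log2 fold change was −0.23 ± 0.06 (SE; edgeR, adjusted p = 0.0482). This call was just under the threshold: leaving out any of the 3 wild-type or 3 deletion libraries gave an adjusted p between 0.0881 and 0.188.

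SAM2, 1 of the 2 genes for S-adenosylmethionine synthetase, was at 644, 555 and 630 CPM in the wild type and at 462, 493 and 462 CPM in the deletion strain. The groups did not overlap, but the test did not call it, with a log2 fold change of −0.37 ± 0.12 (SE; edgeR, adjusted p = 0.0952). Without construct replicate 3 or 2, libraries that enter this comparison only through the shared estimate of spread, the adjusted p was 0.00177 and 0.0307. Calls over all genes rose from 382 to 1097 without construct replicate 3. Across all alternatives the adjusted p of SAM2 ran from 1.36e-05 to 0.282. SAM1, the paralog, was at −0.03 ± 0.05 (95% interval −0.14 to 0.08). The 2 genes summed as a single feature gave −0.16 ± 0.06 (SE; edgeR, adjusted p = 0.155).

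MET2, which opens the branch from homoserine, was at 23.3, 24.6 and 24.8 CPM in the wild type and at 30.0, 31.6 and 34.7 CPM in the deletion strain. These did not overlap either, yet MET2 was not called (log2 fold change 0.40 ± 0.19, SE; edgeR, adjusted p = 0.246). Without construct replicate 3 its adjusted p was 0.0109 with the same log2 fold change of 0.40. Across all alternatives it ran from 0.000956 to 0.483. In all, 4 of 10 genes had deletion libraries wholly above and 2 wholly below the wild-type libraries, where 21.1% and 19.2% of all tested genes did.

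The remaining 4 genes were not called in this comparison. MET6, the methionine synthase, was at −0.11 (95% interval −0.33 to 0.11), and its wild-type libraries ran from 462 to 581 CPM. MUP1, the high-affinity methionine permease, was at 0.11 (95% interval −0.07 to 0.30). CYS4, cystathionine beta-synthase, was at 0.03 (95% interval −0.08 to 0.15) and CYS3, cystathionine gamma-lyase, at 0.05 (95% interval −0.12 to 0.21).

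**Figure D2:**
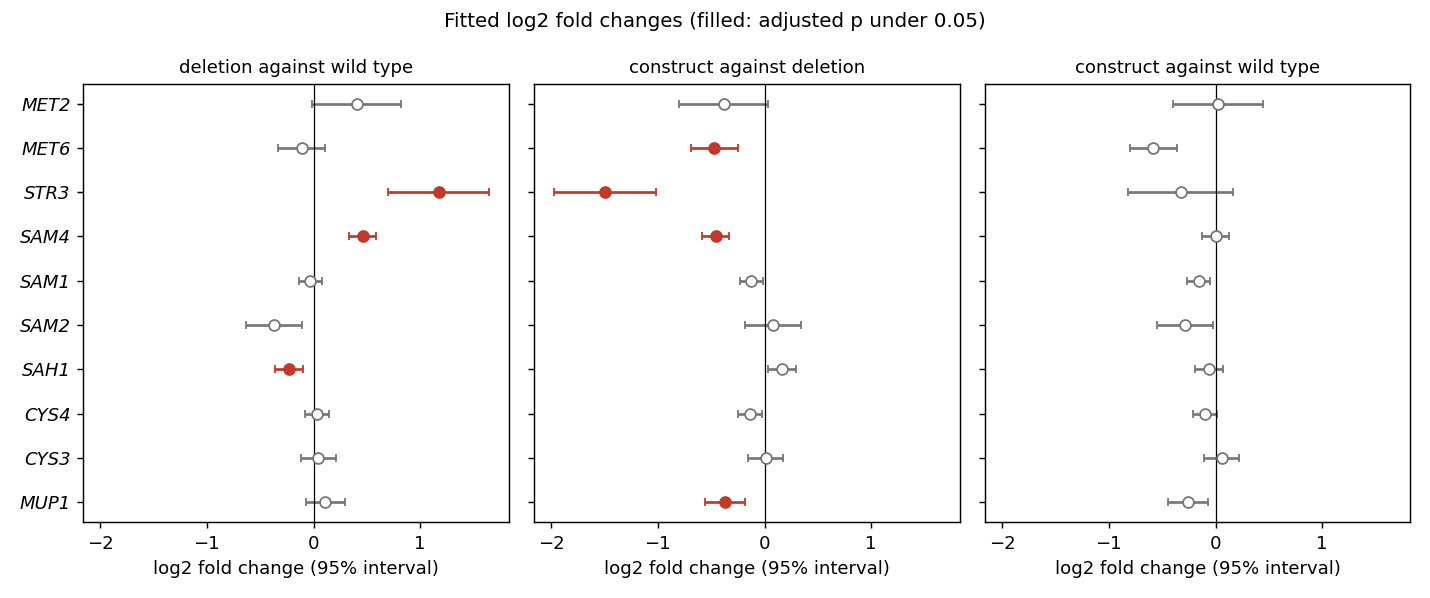
Fitted log2 fold changes (horizontal axis) of the 10 genes with 95% intervals in the 3 comparisons, filled where the adjusted p was under 0.05. STR3 lies at 1.17 in the deletion strain against the wild type and at −1.5 in the construct strain against the deletion strain, and no gene is filled in the construct strain against the wild type.

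Construct and deletion libraries together show how the genes stand when ZPR1 is raised while AIM29 is missing. STR3 and SAM4 were lower in construct cells, and so were MET6 and MUP1, which had not been called in the deletion strain. In edgeR's quasi-likelihood test 4 of 10 genes were called lower, against 3.72% of all genes tested, and 0 higher, against 1.66%. SAH1 alone had an unadjusted p under 0.05 in the higher direction by edgeR, and DESeq2 and limma-voom also called 0 higher. DESeq2 called the same 4 genes lower, limma-voom called 6 lower, with MET2 and SAM1 besides these 4, and the fit of the 2 groups alone called 3, without MUP1. The median of the 10 log2 fold changes was −0.25, against 0.00313 over all genes. The deletion libraries enter this comparison as well as the preceding one, so opposite values in both are not independent of each other.

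STR3 was at 11.2, 9.2 and 17.5 CPM in the construct libraries, each below each deletion library. The mean fell by 64.5%, with a log2 fold change of −1.5 ± 0.22 (SE; edgeR, adjusted p = 0.00228), and the adjusted p was at most 0.0161 over the alternatives. Construct replicate 3, the highest of the 3, was within the wild-type range. SAM4 was at 401, 360 and 361 CPM, again with no overlap with the deletion strain (log2 fold change −0.46 ± 0.06, SE; edgeR, adjusted p = 0.000887). Its mean of 374 ± 23.2 CPM in the construct strain stood beside 373 ± 9.61 in the wild type.

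MET6, which makes methionine from homocysteine, was at 296, 363 and 369 CPM in the construct strain and at 456, 502 and 468 in the deletion strain. Every construct library was below every deletion library, and the mean fell by 27.9%. The log2 fold change was −0.47 ± 0.10 (SE; edgeR, adjusted p = 0.0203). Leaving out deletion replicate 1, 2 or 3 gave adjusted p of 0.0564, 0.107 and 0.0689.

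MUP1, which brings methionine into the cell, was at 253, 276 and 327 CPM in the construct strain and at 359, 382 and 364 CPM in the deletion strain. The groups did not overlap (log2 fold change −0.37 ± 0.08, SE; edgeR, adjusted p = 0.029). The call was lost, with adjusted p between 0.0515 and 0.135, when construct replicate 1 or any of the wild-type or deletion libraries was left out, and in a fit of the 2 groups alone (adjusted p = 0.112).

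Of the genes not called here, MET2 depended on a single library. It was at 22.3, 17.7 and 34.1 CPM in the construct strain, so that replicate 3 lay inside the deletion range and the other 2 libraries below all wild-type libraries. Its log2 fold change from the deletion strain was −0.38 ± 0.19 (SE; edgeR, adjusted p = 0.262), and −0.69 with an adjusted p of 0.00101 without construct replicate 3. SAM2 was at 471, 415 and 610 CPM, and its log2 fold change of 0.08 turned to −0.09 without replicate 3. CYS3, at 577, 546 and 678 CPM, likewise went from 0.01 to −0.09. SAH1 was at 1458, 1360 and 1545 CPM, above every deletion library, with a log2 fold change of 0.17 ± 0.06 (SE; edgeR, adjusted p = 0.129; 0.0254 without construct replicate 2). SAM1 (−0.12) and CYS4 (−0.13) were lower in every construct library than in any deletion library, without a call. CYS4 was called without construct replicate 1 (edgeR adjusted p = 0.0464). Across all alternatives the adjusted p reached 0.504 for MET2, 0.345 for SAH1 and 0.364 for CYS4. Construct libraries lay wholly below the deletion libraries in 6 of 10 genes and wholly above in 1, against 13.5% and 12.2% of all genes tested.

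**Figure D3:**
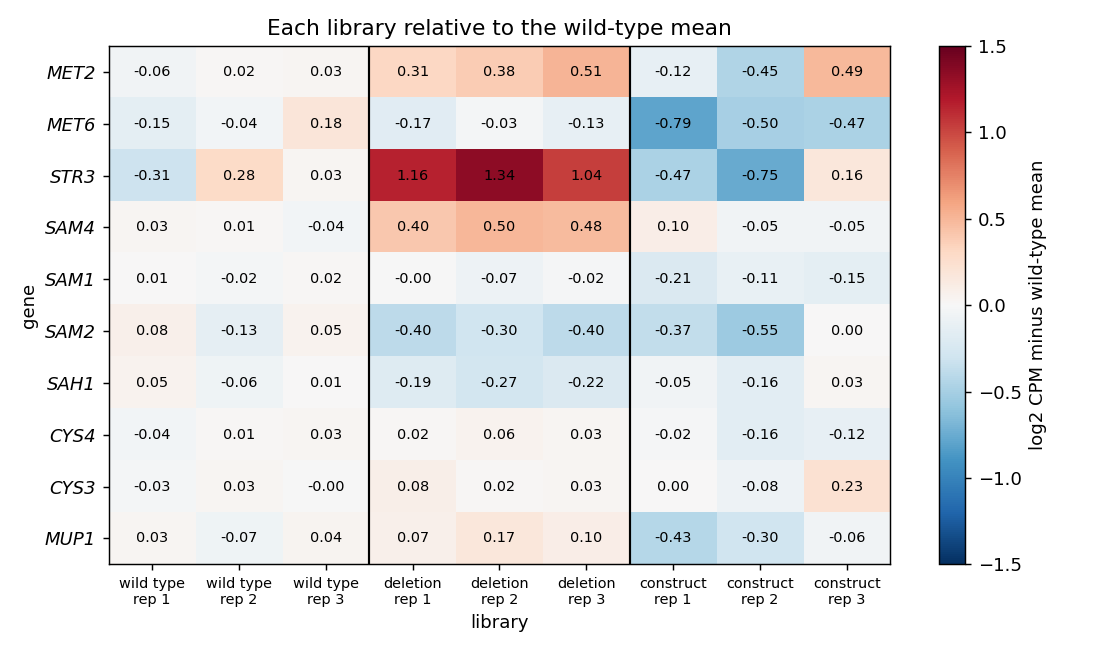
Difference of each library's log2 CPM from the wild-type mean (colour and printed value) for the 10 genes (rows) in the 9 libraries (columns). In MET2, MET6, STR3, SAM2, SAH1, CYS3 and MUP1 construct replicate 3 lies above construct replicates 1 and 2, and in SAM1, SAM4 and CYS4 it does not. In MET6 all 3 construct libraries lie between −0.79 and −0.47.

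The construct strain was also set against the wild type, which asks where the genes ended up with AIM29 missing and ZPR1 raised. By edgeR 0 of 10 genes were called in either direction, where 0.117% of all genes were called higher and 0.067% lower. An unadjusted edgeR p under 0.05 was found for 4 of the 10, all lower. The share of all genes under that threshold is not given, so this count is not read as a result about the 10. DESeq2 called MET6, and limma-voom with library weights called MET6 and MUP1. The median of the 10 log2 fold changes was −0.13, against 0.00762 over all genes.

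MET6 had the largest difference here. All 3 construct libraries were below all wild-type libraries, at 342 ± 40.6 against 514 ± 60.7 CPM (SD, n = 3), with a log2 fold change of −0.58 ± 0.10 (SE; edgeR, adjusted p = 0.0581). Its adjusted p was 0.0406, 0.0452 and 0.00779 without construct replicate 1, 2 and 3, and ranged from 3.56e-05 (DESeq2) to 0.362 over all alternatives. With the replicate number as a block it was 0.0176. MUP1 was at −0.26 (95% interval −0.44 to −0.07) and SAM2 at −0.29 (95% interval −0.55 to −0.03). With all libraries neither was called (edgeR adjusted p of 0.288 and 0.364). Without construct replicate 3 both were called lower (edgeR adjusted p of 0.00907 and 0.00977). Over all genes that fit called 26 higher and 37 lower, against 7 and 4 with all libraries. Across all alternatives the adjusted p reached 0.648 for MUP1 and 0.712 for SAM2. STR3 was at −0.33 (95% interval −0.82 to 0.17), an interval too wide to place it on either side of the wild type, and at −0.64 without construct replicate 3 and −0.14 without construct replicate 2, neither called. SAM4 was at 0.00339 (95% interval −0.12 to 0.13) and MET2 at 0.02 (95% interval −0.40 to 0.44), or −0.28 without construct replicate 3. SAM1 was at −0.16 (95% interval −0.26 to −0.05), SAH1 at −0.06 (95% interval −0.19 to 0.07), CYS4 at −0.10 (95% interval −0.21 to 0.01) and CYS3 at 0.06 (95% interval −0.11 to 0.22). Construct libraries lay wholly below the wild type in 2 of 10 genes, MET6 and SAM1, and wholly above in 0, against 8.58% and 7.81% of all genes tested.

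Ratios of counts within a library do not depend on how libraries are scaled, and were taken for 3 pairs of genes in the 3 comparisons, 9 exact 2-sided permutation tests in all. With 3 libraries against 3 the smallest p possible is 0.1, and after adjustment over the 9 tests no p was below 0.18. The SAM2 to SAM1 ratio, between the paralogs, was 0.725, 0.639 and 0.704 in the wild type and 0.523, 0.587 and 0.531 in the deletion strain. These did not overlap (log2 difference −0.33, exact p = 0.1). In the construct strain the ratio spread from 0.507 to 0.766, across both other groups. The STR3 to CYS3 ratio sets the gene leading from cystathionine to homocysteine against the gene leading from cystathionine to cysteine. It was 0.0221, 0.0323 and 0.0276 in the wild type, 0.0572, 0.0678 and 0.0544 in the deletion strain, and 0.0194, 0.0169 and 0.0258 in the construct strain. The deletion strain stood apart from both other groups, by 1.14 on the log2 scale from the wild type (exact p = 0.1). The MET6 to SAH1 ratio was 0.294 to 0.381 in the wild type, 0.344 to 0.399 in the deletion strain and 0.203 to 0.267 in the construct strain, where it was below every library of both other groups (log2 difference −0.52 from the wild type, exact p = 0.1).

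**Figure D4:**
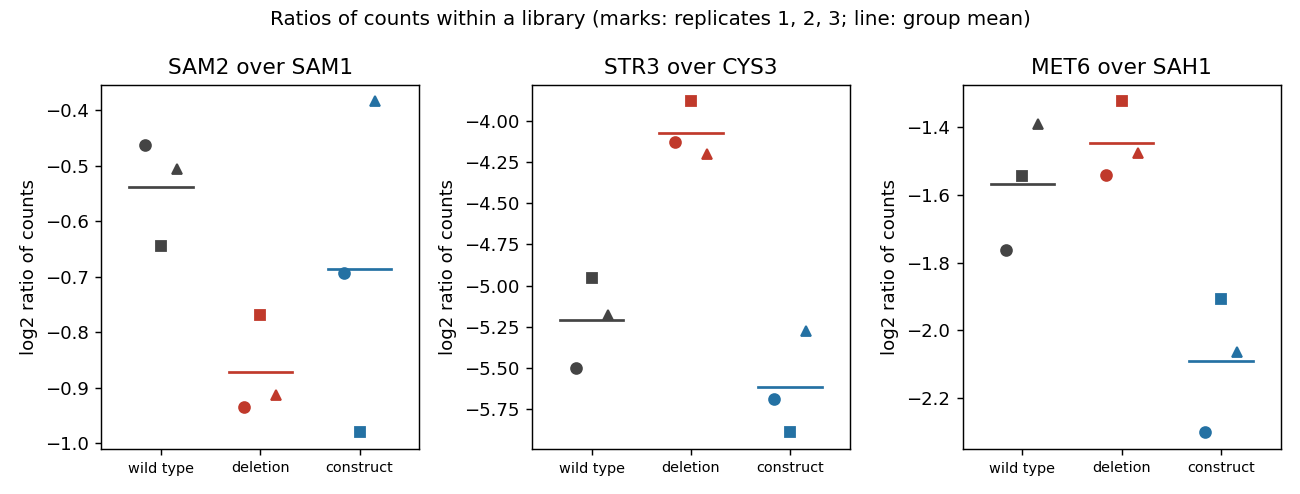
Log2 ratios of counts within each library (vertical axes) for SAM2 over SAM1, STR3 over CYS3 and MET6 over SAH1, with marks for replicates 1, 2 and 3 and a line at each group's mean. STR3 over CYS3 is highest in the 3 deletion libraries, and MET6 over SAH1 is lowest in the 3 construct libraries.

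Genes on either side of these enzymes were read in 7 lists with 50 genes, of which 49 were tested. In the deletion strain 8 of them were higher and 1 lower than in the wild type, 11 were lower and 0 higher in construct than in deletion cells, and 0 were called between the construct strain and the wild type by edgeR. At an unadjusted p under 0.05 these counts, in both directions together, were 25, 25 and 2, DESeq2 called 11, 11 and 0, and limma-voom called 26, 22 and 0. Over all 5970 genes, edgeR called 382, 321 and 11, DESeq2 597, 503 and 72, and limma-voom 1563, 621 and 40. The share of all genes with an unadjusted p under 0.05 is not given, here or for the lists below. The list counts turned on single libraries. Without construct replicate 3, a choice made after seeing the data, the deletion strain had 15 higher and 3 lower than the wild type, with 19 lower and 3 higher between construct and deletion, and 2 lower between construct and wild type. Without any 1 of the wild-type or deletion libraries, 4 or 5 were higher in the deletion strain. The homoserine supply that feeds Met2 rose as a whole in the deletion strain, with 3 of 3 genes called. HOM3, aspartate kinase, was at 555 ± 5.24 CPM against 272 ± 15.3 in the wild type (SD, n = 3), HOM2 at 1134 ± 31.4 against 555 ± 5.3, and HOM6 at 457 ± 2.01 against 400.1 ± 12.6. All 3 were called lower in construct than in deletion cells. STR2, whose product makes the cystathionine that Str3 uses, went the same way as STR3, 1.82-fold higher in the deletion strain (log2 fold change 0.86 ± 0.08, SE) and at −0.75 ± 0.08 in the construct strain against the deletion strain.

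In sulfate uptake and assimilation, which supplies the sulfide, 3 of 11 genes were called higher in the deletion strain and the same 3 lower in construct than in deletion cells: SUL2, a sulfate permease gene, MET1 and MET22. The list's median log2 fold changes were 0.65 and −0.66. At an unadjusted p under 0.05, 9 of the 11 were higher in the deletion strain and 1 lower, and 9 were lower between construct and deletion, which were also the counts called by limma-voom, where DESeq2 called 3 and 3. Without construct replicate 3, edgeR called 9 higher in the deletion strain and 9 lower between construct and deletion, and without any 1 deletion library 1 or 2 higher and 1 lower. Calls over all genes also rose without construct replicate 3, from 253 to 577 higher in the deletion strain and from 222 to 340 lower between construct and deletion. MET17, which joins the sulfide to the product of Met2, was at 673 ± 20.1 CPM in the deletion strain, 394 ± 55.3 in the wild type and 384 ± 198 in the construct strain (SD, n = 3), and was not called. Its construct libraries were at 338, 214 and 601 CPM, and without the last of them, replicate 3, MET17 was called in both comparisons with the deletion strain (log2 fold change 0.78, edgeR adjusted p = 0.00141, against the wild type, and −1.29, adjusted p = 0.0001, for construct against deletion). Among 6 tested genes for regulators of the pathway 0 were called in any of the 3 comparisons by edgeR or DESeq2, with 1, 1 and 0 at an unadjusted p under 0.05; limma-voom called 1 higher and 1 lower in the deletion strain. MET28, another regulator, had too few counts to be tested. GCN4 was at 0.13 ± 0.08 and MET4 at 0.10 ± 0.05 on the log2 scale in the deletion strain, neither called; transcript levels do not measure the activity of these factors.

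In the folate branch, which provides the methyl group to Met6, edgeR called 0 of 6 genes in the deletion strain (3 had an unadjusted p under 0.05, DESeq2 called 2) and MET13 alone between construct and deletion, at 0.729 of its deletion level. Its log2 fold change was −0.45 ± 0.10 (SE), beside −0.47 for MET6. Among the other genes of the methionine cycle and salvage, IRC7 was lower in construct than in deletion cells (−0.45 ± 0.10), and STR2 was the only other gene of 9 called. Among 8 genes that use S-adenosylmethionine or cysteine, ERG6, a sterol methyltransferase gene, was lower in the deletion strain (−0.30 ± 0.06) and GSH1, of glutathione synthesis, was lower in construct than in deletion cells (−0.29 ± 0.06). Without construct replicate 3, OPI3 of this list was also called lower in the deletion strain (−0.69, edgeR adjusted p = 1.67e-05). So was SHM2 of the folate branch (−0.44, edgeR adjusted p = 0.00102). Neither was called by edgeR with all libraries. Among 6 other uptake genes the permease gene GNP1 was higher in the deletion strain (0.24 ± 0.06) and MMP1, an S-methylmethionine permease gene, lower in construct than in deletion cells (−0.32 ± 0.07).

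Histidine synthesis, another pathway known to respond to Gcn4, is set beside these genes for scale. It had 6 of 7 genes called higher in the deletion strain and 6 lower in the construct strain against it, with medians of 0.56 and −0.65, where the 10 genes had medians of 0.04 and −0.25. The Gcn4 core was present before 4 of its 7 genes, HIS1, HIS4, HIS5 and HIS7, all called higher in the deletion strain. HIS2 and HIS3 were called higher without it, and the gene not called also lacked it. Of the 2 among the 10 with the core, STR3 was called higher there and MUP1 was not. Only the exact core was sought, and a link between matches and fold changes was not tested. The difference between the 2 sets was not tested.

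**Figure D5:**
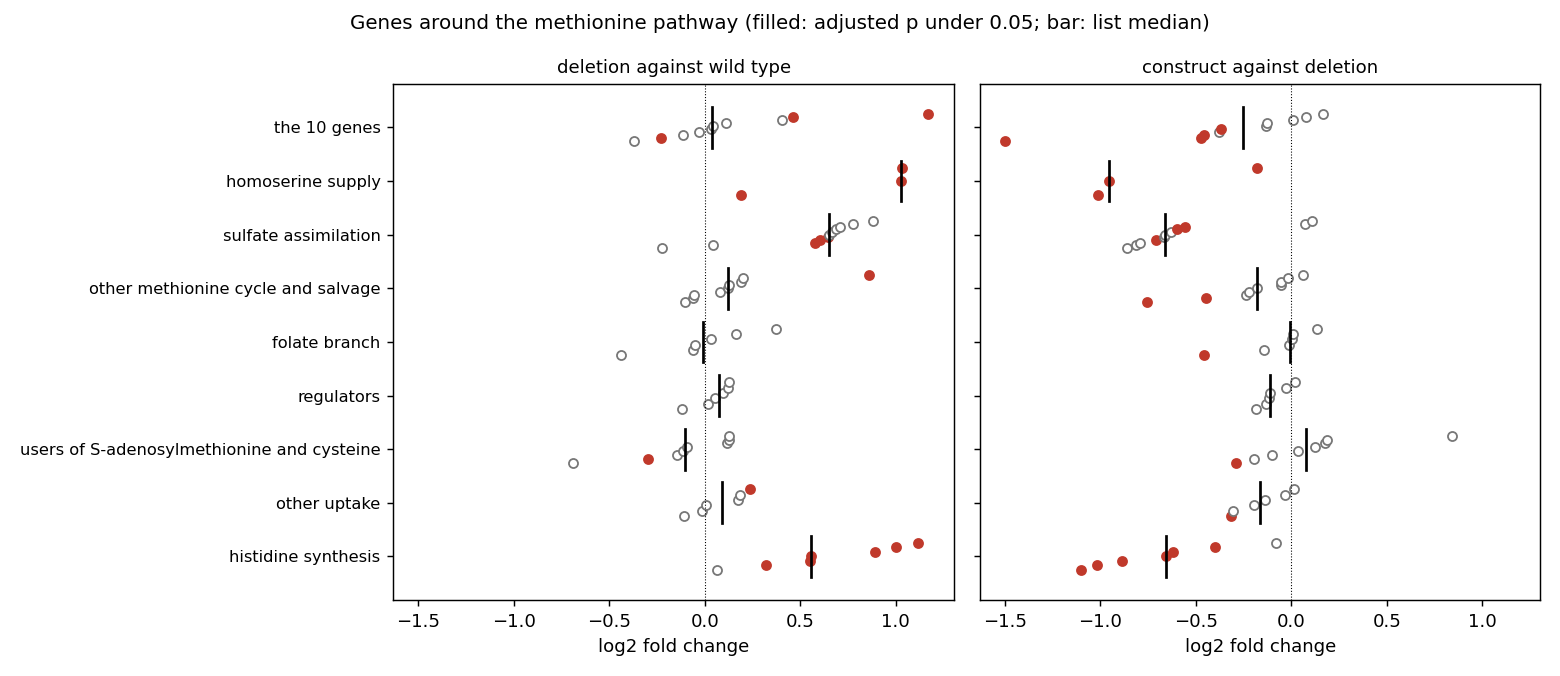
Log2 fold changes (horizontal axes) of the 10 genes and of the lists around them, with histidine synthesis for comparison, in the deletion strain against the wild type and in the construct strain against the deletion strain. Each point is a gene, filled where the adjusted p was under 0.05, and the bar is the list median, which for homoserine supply is 1.03 and then −0.95.

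Genes whose pattern over the 9 libraries was most like that of STR3, MET2 and MET6 were sought among 5051 genes of at least 10 CPM, by the mean absolute difference of log2 CPM centred on each gene's own mean. For STR3 the nearest were GGC1, a mitochondrial GTP carrier gene, at 0.212, then YHI9 (0.224), HSP78, a mitochondrial disaggregase gene (0.232), SRY1 (0.237) and YRO2 (0.241), where the median over the 5051 genes was 0.619. GGC1 was at 168, 387 and 157 CPM in the wild type, the deletion strain and the construct strain. For MET2 they were RGS2 (0.0693), GLG2 (0.0884), RAD7 (0.105), IDP1 (0.106) and SSE2 (0.106), with a median of 0.27 over the 5051 genes. For MET6 the nearest were YMR050C (0.12), ROG1 (0.123), BNA2 (0.123), MCO6 (0.124) and GRX8 (0.127), with a median of 0.25. YMR050C is a reading frame of the Ty1 retrotransposon, a family of near-identical copies, so its counts are uncertain. The 9 libraries and their scaling are shared by all genes, and the likeness is a description.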

How the data were processed

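The authors deposited raw counts per annotated feature and library, with no normalisation. The submitters' processing notes name FastQC 0.11.5, STAR 2.7.0, DESeq2 1.34.0 and build R64 without their role; no counting tool, strand setting or rule for reads with several positions is given in the sources used here, so counts of overlapping or repeated genes are uncertain. Of 7127 features, 6047 were matched to the reference by systematic name and 41 by symbol.

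Counts were filtered with filterByExpr and tested with edgeR 4.0.16 (TMM scaling, glmQLFit, glmQLFTest) in R 4.3.3, in 1 fit of the 9 libraries by group without covariates, which gives 6 residual degrees of freedom and a spread shared by the groups. P-values were adjusted over 5970 genes with the Benjamini-Hochberg method. CPM use scaled library sizes, except in the mating type sums, which use library totals without scaling. Log2 CPM carry a prior count of 2. A total of 3 counts corresponds to 0.143 to 0.213 CPM. Standard errors come from the fit. No replicate library was treated as a copy: chi-square statistics between them were 2.93 to 66.1 per degree of freedom, above sampling noise.

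The alternatives were other scaling, filters and thresholds, DESeq2 1.42.0, limma-voom (limma 3.58.1) with library quality weights, fits of 2 groups, a replicate block, leaving out each library, and summed paralogs. The genes and lists were chosen with earlier results of these data known. The named genes are the 10, AIM29, ZPR1, called genes of the lists and the 5 nearest patterns. MET17, GCN4, MET4, MET28, OPI3, SHM2 and YMR321C were added after their values were seen.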

Additional observations from a re-analysis of the deposited data

How the results depend on the processing

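Scaling by median-ratio factors and a minimum of 100 counts in 3 of the libraries changed no call among the 10 genes. Of 519 values of single genes under alternatives, 458 kept their direction and their side of the threshold, 20 lost a call, 25 gained one and 16 changed sign, all 16 without a call in either fit. Genes called lower in the deletion strain, 1 of 10, were 0 without a low-count filter or at an adjusted p under 0.01, and 2 without composition factors, with DESeq2, with limma-voom and in a fit of the 2 groups alone, where 4 were higher. Between construct and deletion, genes called lower were 2 at the stricter threshold and 6 with limma-voom, and 1 was higher without composition factors. Between construct and wild type, 1 gene was lower with DESeq2, 2 with limma-voom and 1 with the replicate block. Leaving out single libraries gave 1 to 3 genes higher and 0 to 2 lower in the deletion strain, 0 to 1 higher and 2 to 5 lower between construct and deletion, and 0 to 3 lower between construct and wild type. In the 49 pathway list genes, recounted after seeing the data, 8 higher and 1 lower in the deletion strain became 21 and 5 with limma-voom, 22 and 4 in a fit of the 2 groups alone, 9 and 2 with DESeq2 and 4 and 0 at the stricter threshold, and ran from 4 to 15 and 0 to 3 without single libraries. The 11 lower and 0 higher between construct and deletion became 20 and 2 with limma-voom, 5 lower in a fit of the 2 groups alone, 7 without composition factors and 4 at the stricter threshold, and ran from 4 to 19 and 0 to 3 without single libraries; between construct and wild type 0 to 2 were lower. Over all genes the calls of the 3 comparisons, 382, 321 and 11, were 597, 503 and 72 with DESeq2, 1563, 621 and 40 with limma-voom, 1588, 153 and 4 in fits of 2 groups, and 163, 143 and 5 at the stricter threshold. They ran from 168 to 1097, 145 to 720 and 4 to 73 without single libraries. The share of calls that were higher went from 66.2% to 37.2% in the deletion strain and from 30.8% to 52.0% between construct and deletion without composition factors; the cause was not tested.

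Signs changed without composition factors for CYS4 (−0.018) and CYS3 (−0.00718) in the deletion strain and for MET2 (−8.93e-05) and SAM4 (−0.0162) between construct and wild type. With limma-voom they changed for CYS3 between construct and deletion (−0.0369) and MET2 between construct and wild type (−0.14), and with SAM1 and SAM2 summed for SAM2 between construct and deletion (−0.0497). Without single libraries the log2 fold changes ran, between construct and deletion, from −0.0859 to 0.0752 for CYS3 and −0.0927 to 0.19 for SAM2, and, between construct and wild type, from −0.28 to 0.22 for MET2, −0.0495 to 0.0291 for SAM4 and −0.0403 to 0.12 for CYS3.

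The replicate numbers did not pair the libraries: deviations of same-numbered libraries correlated between −0.107 and 0.0745, and in 4 of 9 same-numbered pairs over the 3 comparisons the library correlated best with its own number in the other group. With the replicate block, the deletion strain had 2 of the 10 genes higher and 1 lower, 4 lower between construct and deletion, and MET2 between construct and wild type was at −0.0103. The counting error was largest for STR3 and MET2, at most 7.2% and 5.18%. The spread between construct libraries was wider, with a coefficient of variation of 34.3% for STR3 and 34.2% for MET2. In the wild type it was 20.4% and 3.37%.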
